A study of Homo sapiens with 4 samples.

Results

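Exon peaks of protein-coding genes that lay away from the transcript end were examined among regions of RNA recovered with YBX1 from PANC-1, an established line of human pancreatic cancer cells. A peak was taken when the deposited annotation put it in an exon, when it was assigned to at least 1 protein-coding RefSeq transcript, and when its middle was more than 1000 bp from the end of every such transcript. The rule kept 14301 of 53161 peaks, 7642 of 27669 in the replicate 1 list and 6659 of 25492 in the replicate 2 list. These are called end-distant exon peaks below, and the 1338 and 1097 exon peaks of coding genes that lay nearer to an end are called near-end exon peaks. Where a pair of values is given without further words, the value of the replicate 1 list stands before that of the replicate 2 list.

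The 4 samples were 2 YBX1 immunoprecipitates (IP) and 2 inputs made without an antibody. All 4 came from cells pretreated with extracellular vesicles (EVs) derived from CAFs, the usual abbreviation for cancer-associated fibroblasts. Cells were crosslinked with ultraviolet light, and the lysate was sonicated and treated with RNase I before capture. Each deposited list set 1 IP against the input of the same replicate number. Neither cells without vesicles nor an IP with a control antibody were analysed here, and the lists show only what was recovered over input after vesicle treatment. Whether replicates 1 and 2 were separate cultures is not stated in the labels, so the spread between the lists may be technical.

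YBX1 is a cold-shock domain protein of the cytoplasm and nucleus that binds messenger RNA and is known to affect its packaging, stability and translation. Exons are the parts of a gene that remain in the mature messenger RNA, while introns are removed by splicing. In most coding genes the last exon is the longest and holds the 3′ untranslated region, so an exon peak far from the end usually lies over the coding sequence or over an earlier part of a long last exon.

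The gene of the captured protein had end-distant exon peaks in both lists. On hg19, YBX1 held 3 of them in each list, and all overlapped an end-distant peak of the other list. The first, at chr1:43162236-43162704 in replicate 1 and chr1:43162236-43162705 in replicate 2, held 3058 IP reads at a deposited fold over input of 12.1 and 1339 reads at a fold of 13.2. The middle one held 1183 reads at a fold of 10.1 and 368 reads at a fold of 13.4. The last began at chr1:43167592 in both lists and reached 43168599 in replicate 1 and 43168055 in replicate 2. It held 7886 reads at a fold of 34.2 in replicate 1 and 1482 reads at a fold of 15.7 in replicate 2. Its edge came to 875 bp from the transcript end in replicate 1 and stayed 1419 bp away in replicate 2. The lists thus gave the first peak nearly the same borders and differed over how far the last one extends.

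The end-distant exon peaks made up 27.6% and 26.1% of the peaks and 85.1% and 85.9% of the exon peaks of coding genes. They held 20.3% and 19.6% of all reads in peaks, covered 5.70 and 4.34 Mb, and named 3530 and 3443 genes. The middle of every such peak lay inside the bounds of a transcript. By the deposited distances, none was nearer than 2025 bp in replicate 1 or 2018 bp in replicate 2 to the start of the longest coding transcript it was assigned to, because the annotation puts peaks nearer to a start in a promoter class. Exons close to a start are therefore outside the set. The median distance from the middle of the peak to the nearest end was 18942 bp in replicate 1 and 20130.5 bp in replicate 2, in transcripts with a median genomic span of 79.1 and 78.2 kb.

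The distance rule uses the middle of a peak, and some long peaks still ran to the end. In replicate 1, 822 end-distant peaks (10.8%) had an edge within 1000 bp of an end, and 368 of them ran past it. In replicate 2 there were 555 such peaks (8.33%), of which 219 ran past the end. They held 66.4% and 57.1% of all reads in end-distant peaks, with a median length of 2874 and 2616 bp. The other 6820 and 6104 peaks, which lay wholly more than 1000 bp from every end, had a median length of 300 and 304 bp and a median of 42 and 16 reads. Most end-distant peaks by number were thus short and lay far from an end, while most of their reads lay in a small number of long peaks with an edge within 1000 bp of one. The peaks that ran past an end held 43.8% and 40.1% of the reads.

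Peaks just inside the 1000 bp limit resembled those just outside it. With the middle 1000 to 1100 bp from an end, 115 and 101 peaks had a median of 362 and 175 reads, a median fold of 6.62 and 13.8 and a median length of 2047 and 1989 bp. With the middle 900 to 1000 bp from an end, 124 and 92 peaks had a median of 350 and 107.5 reads, a median fold of 6.82 and 15.995 and a median length of 1833.5 and 1772 bp.

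The typical end-distant exon peak was short. Its median length was 311 bp in both lists, against 985 and 923 bp for near-end exon peaks. Intron peaks of coding genes had a median of 276 and 284 bp, and all peaks of 334 and 327 bp. The short length was therefore shared with most of each list, and near-end peaks were the longer kind. Peaks longer than 250 bp and up to 350 bp made up 54.4% and 60.1% of the end-distant set, and 7.997% and 8.75% of the near-end set. Peaks over 2000 bp numbered 839 and 529, which is 10.98% and 7.94% of the end-distant set, and held 71.5% and 61.8% of its reads. Their median distance to an end was 1735 and 1826.5 bp. In 69.8% and 70.6% of end-distant peaks the deposited summit was the exact middle of the peak to within 1 bp, against 14.6% and 13.0% of near-end peaks. The same held for 62.2% and 63.2% of intron peaks of coding genes and for 57.2% and 58.6% of all peaks. A centred summit was therefore not particular to end-distant peaks.

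**Figure D1:**
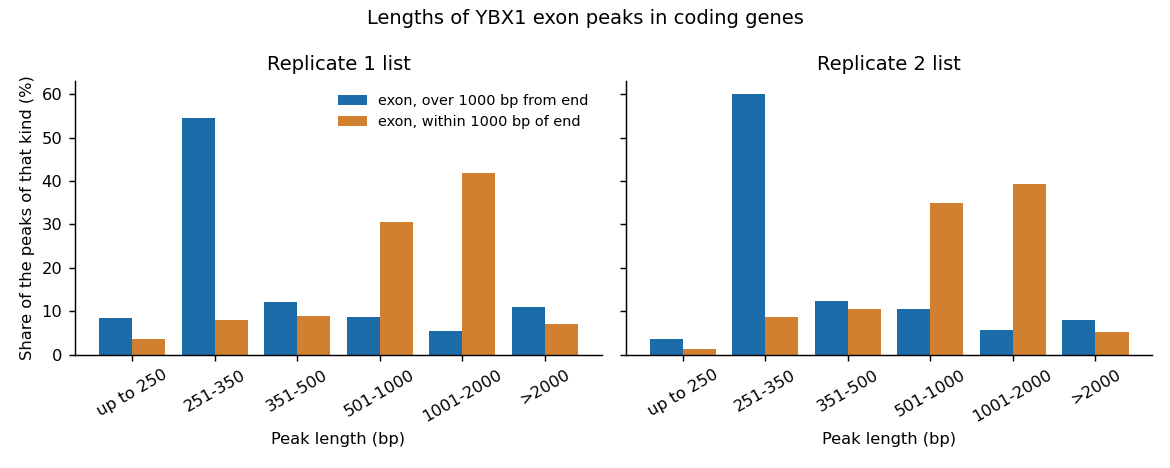
Share of exon peaks of coding genes (y axis, percent of the peaks of that kind) by peak length in bp (x axis), for end-distant peaks (blue) and near-end peaks (orange), with 1 panel per list. End-distant peaks longer than 250 bp and up to 350 bp reach 54.4% and 60.1% of their set, while near-end peaks are most often longer than 1000 bp and up to 2000 bp.

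End-distant peaks held fewer reads than near-end peaks. Their median was 49 reads in replicate 1 and 18 in replicate 2, against 250.5 and 80 reads in near-end peaks and 22 and 10 reads in intron peaks of coding genes. Per kb of peak the median was 135 and 50.8 reads in end-distant peaks, 236 and 79.3 reads in near-end peaks, and 70 and 30 reads in intron peaks. On both scales the end-distant exon peaks stood between near-end exon peaks and intron peaks in each list. Read counts are not scaled to library size, so they are not compared between the lists.

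The deposited folds ran the other way. The median fold was 9.07 and 23.4 in end-distant peaks, 7.13 and 15.1 in near-end peaks and 10.1 and 25.3 in intron peaks. The median log2 fold was 0.35 higher in end-distant than in near-end peaks in replicate 1 and 0.63 higher in replicate 2. The fold fell with reads across peaks, with a Spearman correlation of -0.49 over the 7642 peaks and -0.47 over the 6659, given as a description because reads enter the fold.

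Some deposited folds were the read count times a constant. In 1958 end-distant peaks of replicate 1 (25.6%) the fold divided by the reads was within 1% of the largest value in the list, 0.718 per read. In replicate 2 this held for 1832 peaks (27.5%), at 4.22 per read. Such peaks held a median of 20 and 8 reads, against 76 and 28 reads in the other end-distant peaks. Peaks at the largest fold per read made up 6.20% and 6.38% of near-end peaks and 50.4% and 41.9% of intron peaks. Without them the median fold was 7.46 and 17.0 in end-distant peaks and 6.89 and 14.4 in near-end peaks, which left a log2 difference of 0.11 in replicate 1 and 0.24 in replicate 2. The input reads behind the folds were not used here.

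Within classes of similar read number the order of the folds turned in most classes, though not in those with the fewest reads in replicate 1. The median fold of end-distant peaks was below that of near-end peaks in 4 of 6 classes in replicate 1 and in 6 of 7 classes in replicate 2. In replicate 1 it was higher at 11 to 20 reads (11.49 against 10.05) and at 21 to 50 reads. These 2 classes held 1351 and 2548 of the 7642 end-distant peaks of that list. Among peaks with over 500 reads the median fold was 5.20 and 9.30 in 869 and 241 end-distant peaks, against 5.68 and 10.02 in 421 and 114 near-end peaks. Among peaks of 21 to 50 reads it was 13.6 and 18.7 in 2548 and 1455 end-distant peaks, against 13.0 and 21.4 in 137 and 200 near-end peaks. The quartiles of both kinds overlapped in every class of reads. Peak length was not matched within a class. At 101 to 200 reads the median length was 389 and 905 bp in end-distant peaks and 949.5 and 1217 bp in near-end peaks. With over 500 reads end-distant peaks were the longer, at 2855 and 3159 bp against 1468 and 1497 bp.

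**Figure D2:**
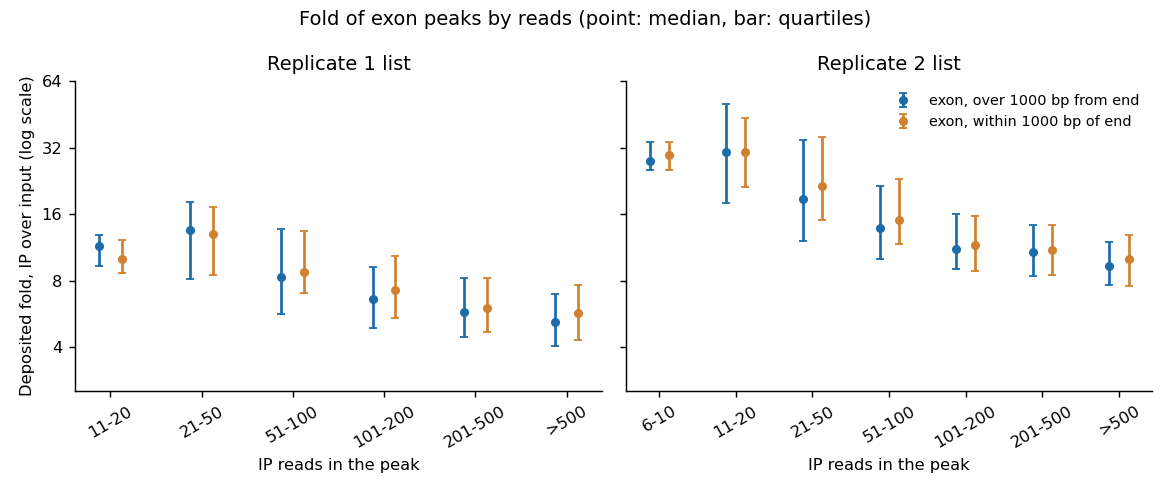
Deposited fold of IP over input (y axis, log scale) by number of IP reads in the peak (x axis) for end-distant (blue) and near-end (orange) exon peaks, with points at the median, bars over the quartiles and 1 panel per list. End-distant medians lie below near-end medians in 10 of 13 classes, and above 500 reads they are 5.20 and 5.68 in replicate 1.

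The median false discovery rate that the authors deposited for end-distant peaks was 17.96% in replicate 1 and 100% in replicate 2, where 3980 of the 6659 peaks (59.8%) stood at 100%. Over all peaks the median was 18.3% and 100%. In replicate 2, 14262 of all 25492 peaks (55.9%) stood at 100%, so high rates were common to the whole list. Overlap between the lists was therefore examined beside the false discovery rate.

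Overlap with the other list by at least 1 bp was found for 2771 of 7642 end-distant peaks of replicate 1, or 36.3% (35.2 to 37.3, 95% Wilson interval). Over all peaks of that list the share was 31.6%. In replicate 2 it was found for 2704 of 6659, or 40.6% (39.4 to 41.8), against 34.7% over all peaks. Near-end exon peaks overlapped the other list in 49.5% and 63.7% of cases and intron peaks in 19.6% and 17.3%. Wilson intervals here cover counting error only, and peaks of 1 gene are not independent.

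The share was far higher at over 500 reads than at 11 to 20 reads in every kind of peak, though it did not rise at each step. With 11 to 20 reads, 13.9% and 31.1% of end-distant peaks overlapped the other list, against 6.85% and 42.2% of near-end peaks and 2.63% and 14.4% of intron peaks. With over 500 reads the share was 69.0% and 89.2% in end-distant peaks, 72.7% and 82.5% in near-end peaks and 79.0% and 82.2% in intron peaks. At 11 to 20 reads the intervals of end-distant and intron peaks were apart in both lists. End-distant and near-end peaks were not ordered the same way in the lists: at 51 to 100 reads the share was 41.9% against 29.5% in replicate 1 and 58.3% against 66.7% in replicate 2.

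**Figure D3:**
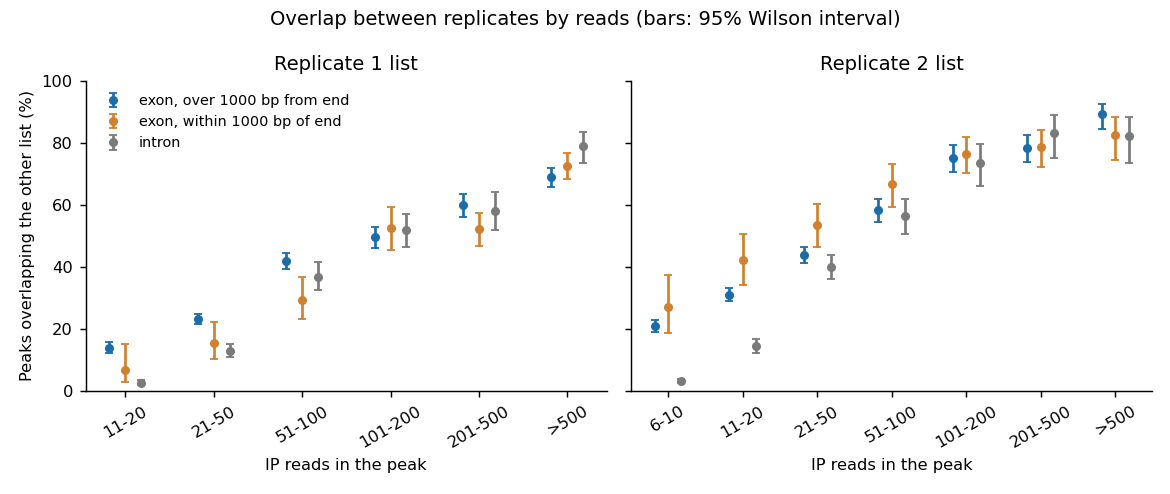
Share of peaks that overlap a peak of the other list (y axis, percent, with 95% Wilson intervals) by number of IP reads in the peak (x axis) for end-distant exon (blue), near-end exon (orange) and intron (grey) peaks of coding genes, with 1 panel per list. At 11 to 20 reads end-distant peaks reach 13.9% and 31.1% and intron peaks 2.63% and 14.4%, while above 500 reads all 3 kinds lie at 69.0% or more.

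Peaks that overlapped the other list held more reads at lower folds. In replicate 1 they held a median of 106 reads at a fold of 7.55, against 36 reads at a fold of 10.1 for those that did not. In replicate 2 they held a median of 36 reads at a fold of 17.9, against 14 reads at a fold of 25.3. The widest overlapping partner was itself an end-distant exon peak in 2231 of 2771 cases (80.5%) and 2270 of 2704 (83.9%), and an intron peak of a coding gene in 273 and 172.

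Taking only end-distant peaks in both lists gave 2285 overlapping pairs, made of 2242 and 2274 peaks. The overlap was a median of 89.4% of the longer peak, and the starts and the ends each differed by a median of 24 bp. Both borders agreed to within 50 bp in 1159 pairs (50.7%), and 6 pairs had identical borders. Across pairs the reads of the lists correlated with a Spearman coefficient of 0.84 and the folds with 0.42. These are correlations across peaks of the same libraries and are given as a description. Where both lists held a peak, they ranked its reads more alike than its fold. At one border or both, the remaining pairs differed by more than 50 bp.

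The pairs with the highest fold in both lists, taken with at least 20 reads in each, lay far from a transcript end. The highest was in HOMER2, which encodes a scaffold protein known from the synapse, at chr15:83561345-83561658. It held 134 and 27 reads at folds of 96.2 and 113.9, and its edge lay 43617 bp from the nearest end in replicate 1. PIP5K1C, a lipid kinase that makes phosphatidylinositol bisphosphate, followed at chr19:3653192-3653641 with 152 and 49 reads at folds of 54.3 and 84.0. DTNB, a dystrophin-associated protein, held 124 and 28 reads at folds of 89.0 and 51.9 at chr2:25850942-25851328.

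Next in this rank came FARP2, INVS and NFATC1. FARP2 had folds of 47.9 and 67.3. INVS, which encodes inversin of the primary cilium, had folds of 46.7 and 76.7. NFATC1, a transcription factor switched on by calcineurin, had folds of 42.4 and 113.9. The other 6 were SCAF8, a factor that binds the tail of RNA polymerase II, the polycomb gene SCMH1, CDH1, which encodes E-cadherin, DENND5A, an activator of Rab GTPases, NCAPD3, a condensin subunit, and GRHPR, a glyoxylate reductase. Their folds ran between 31.2 and 122.3 in the lists. All 12 peaks were between 283 and 450 bp long in replicate 1. In 7 of the 12 the fold stood at the largest fold per read of the replicate 1 list and in 3 at that of the replicate 2 list, HOMER2 and NFATC1 in both. In those the fold is the read number times a constant.

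**Figure D4:**
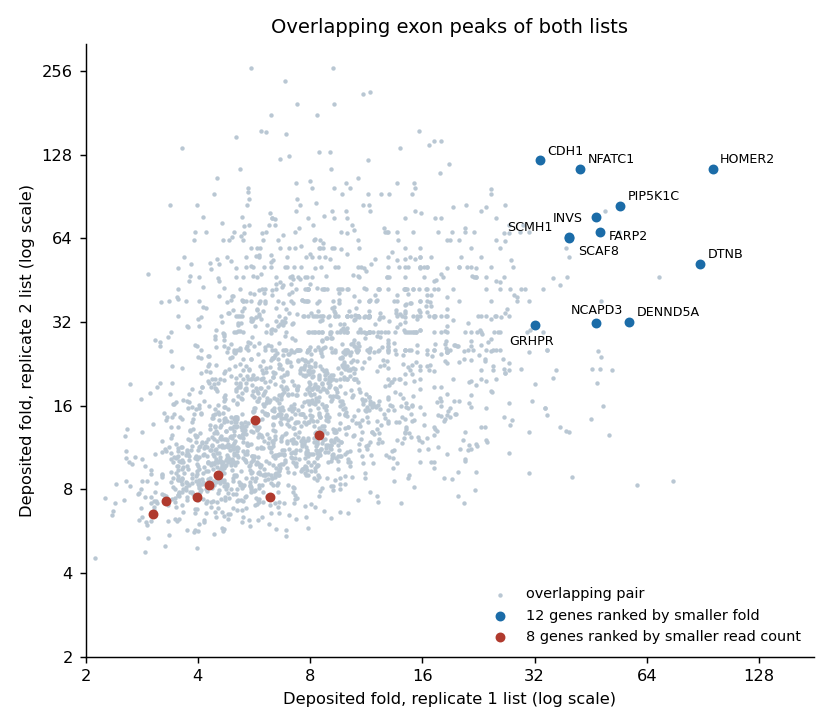
Deposited fold in the replicate 2 list (y axis, log scale) against that in the replicate 1 list (x axis, log scale) for overlapping pairs of end-distant exon peaks, with the 12 genes ranked by the smaller fold in blue and the 8 ranked by the smaller read count in red. The folds correlate with a Spearman coefficient of 0.42, HOMER2 stands at 96.2 and 113.9, and the pairs with the most reads lie among low folds.

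The pairs with the most reads were of another kind. TMEM123, which encodes a membrane glycoprotein, held 40380 and 19336 reads over 3055 and 3060 bp at folds of 4.53 and 8.99. SMAD3, the transcription factor of TGF-beta signalling, held 15699 and 5259 reads over 5722 and 4976 bp at folds of 8.43 and 12.6. CAV1, the coat protein of caveolae, held 7520 and 5217 reads at folds of 3.04 and 6.54. CCND1, which encodes cyclin D1, held 7028 and 4491 reads at folds of 4.28 and 8.27.

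The remaining genes of this rank were TMBIM6, a membrane protein of the endoplasmic reticulum, ANTXR1, the anthrax toxin receptor, CDC42EP3, an effector of the GTPase CDC42, and YWHAG, a phosphoserine-binding adaptor. All 8 peaks were over 2000 bp long in both lists. Their far edge ran past a transcript end in both lists, except that of CDC42EP3 in replicate 1, which stopped 6 bp before it. These peaks met the distance rule by the position of their middle, while covering all or nearly all of the stretch up to the end.

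Several genes carried many end-distant peaks. A single such peak was found in 1830 of the 3530 genes (51.8%) in replicate 1 and in 1826 of the 3443 (53.0%) in replicate 2, and 5 or more in 330 and 202 genes. NCOR1, the nuclear receptor corepressor, had 19 and 16 peaks, of which 12 in each list overlapped an end-distant peak of the other. IGF1R, the receptor of insulin-like growth factor, had 13 and 10, with 9 in each overlapping. MYO10, the myosin of filopodia, had 16 and 9, with 8 in each overlapping. Next came 8 genes with 7 overlapping peaks in each list: ECE1, LRP5, MAP4, MED13L, RNF213, SPTBN1, TOPBP1 and WNK1.

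In NCOR1 the overlapping peaks were spread over the gene between chr17:15942690 and 16068562 in replicate 1. They held between 32 and 575 reads in replicate 1 and between 8 and 193 in replicate 2. Their folds ran from 4.30 to 23.0 in replicate 1 and from 11.7 to 71.7 in replicate 2. The peak with the most reads, at 15973389-15973916, held 575 and 193 reads at folds of 9.61 and 20.1. The folds differed far more between the lists at 15971135-15971520, where they were 4.94 and 64.6, and at 15983840-15984135, where they were 5.48 and 71.7.

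In IGF1R the 9 overlapping peaks mixed both forms. Of these, 8 were between 285 and 670 bp long in replicate 1, held 34 to 578 reads in replicate 1 and 12 to 105 in replicate 2, and stayed at least 41995 bp from the end. The remaining one, at chr15:99500257-99507821 in replicate 1, was 7565 bp long, held 7570 and 1194 reads at folds of 7.21 and 10.9, and ran 62 bp past the end. In MYO10 the longest overlapping peak of replicate 1 was 1635 bp long and held 1548 and 475 reads at folds of 5.17 and 8.48.

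Along the transcript the end-distant peaks lay towards the end. Past the midpoint of the longest coding transcript, introns included, were 70.6% and 68.8% of them, against 55.2% and 52.7% of intron peaks. The final 10% of the span held 20.5% and 18.2% of end-distant peaks and 8.89% and 7.25% of intron peaks. Among peaks that lay wholly more than 1000 bp from every end, 67.2% and 66.0% were past the midpoint. The final 10% of the span held only 13.4% and 12.5% of those peaks. Where the exons themselves lie along these genes was not used here, so the density of peaks per exon was not tested.

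Within genes that held both kinds of exon peak, the highest fold was more often found away from the end. It was higher in end-distant than in near-end peaks in 570 of 731 genes (78.0%) in replicate 1 and in 422 of 557 (75.8%) in replicate 2. Of the 250 genes with both kinds in both lists, it was higher in both lists in 169 and lower in both in 22. The reads ran the other way: the largest read count was higher in end-distant peaks in only 156 and 113 of those genes. These genes averaged 2.40 and 2.04 end-distant peaks, against 1.01 near-end peaks in each list, so the maximum was taken over more peaks on the end-distant side. With the median fold of each kind the share was 68.8% and 68.6%.

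Few genes were left once reads were alike. Among genes with 1 peak of each kind the end-distant fold was higher in 216 of 322 (67.1%) and 181 of 273 (66.3%). Among those whose peaks had read counts within 2 times of each other it was higher in 28 of 50 (56.0%, 42.3 to 68.8) and 35 of 66 (53.0%, 41.2 to 64.6), and both intervals include 50%. The replicate 1 interval also includes 67.1%, and that of replicate 2 overlaps the interval of all 273 genes (60.5 to 71.6). These genes are too few to tell whether the share falls when reads are alike. The part of read number in the higher fold away from the end was not tested beyond these counts.

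With at least 20 reads in all peaks compared, 177 genes could be ranked, of which 109 had the higher end-distant fold in both lists and 17 the lower. SEC31A, a coat protein of vesicles leaving the endoplasmic reticulum, had end-distant folds of 22.8 and 135.7 and near-end folds of 3.42 and 7.01. UBE3C, a ubiquitin ligase, had end-distant folds of 20.1 and 139.2 and near-end folds of 3.16 and 4.66. The other 3 with the largest ratios were PPP4R1, a phosphatase subunit, EDEM2, an enzyme of glycoprotein quality control, and ARFGEF1, an activator of ARF GTPases. For UBE3C and EDEM2 the end-distant fold stood at the largest fold per read in both lists. In all 5 the end-distant peaks were at different places in the lists and held fewer reads than the near-end peak.

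The opposite order was seen for TKT, the transketolase of the pentose phosphate pathway. Its end-distant folds were 8.71 and 17.2, on 484 and 45 reads, and its near-end folds were 32.3 and 45.7, on 980 and 435 reads. PLEKHO2, a pleckstrin-domain protein, had end-distant folds of 9.46 and 18 and near-end folds of 23.69 and 59.06. KPNA2, an importin that carries proteins into the nucleus, had end-distant folds of 7.39 and 7.47 and near-end folds of 11.5 and 12.6. BCAR1, an adaptor of focal adhesions, and DEAF1, a transcription factor, completed the 5. For TKT the end-distant peaks were at different places in the lists, while for the others they overlapped. In PLEKHO2 the end-distant peak of replicate 1 also overlapped the near-end peak of replicate 2.

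Set against intron peaks of the same gene, end-distant exon peaks were denser in reads. Their highest density per kb was above that of the intron peaks in 1196 of 1531 genes (78.1%) and 1320 of 1749 (75.5%). The highest fold was above in 853 (55.7%) and 861 (49.2%), while with median folds the end-distant peaks were above in 644 (42.1%) and 706 (40.4%). Density and fold thus ordered the same peaks differently.

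Overlapping end-distant peaks in both lists named 1479 of 19439 coding genes, or 7.61%, and of the 11147 coding genes named by a peak of any class they were 13.3%. Each list alone named 18.1% and 17.7% of coding genes by an end-distant peak, and 2142 genes were named in both lists. Groups of genes are set against the 7.61% below. The groups were drawn up with earlier results of these data known, several hold long genes with many exons, and neither length nor expression was matched. No test was made of any group. Of the 23 groups 20 stood above 7.61%. The Wilson intervals of some of these include it: cell cycle and DNA replication (6.86 to 31.8), fibroblast markers (1.49 to 35.4) and epithelial line markers (4.70 to 44.8). With groups and background both limited to coding genes named by any peak, 20 groups stood above the 13.3%. Taking the pair with the highest smaller fold in each gene, that fold had a median of 8.39 over all 1481 genes with a pair, and of 6.50 to 15.4 over the groups with at least 5 such genes, lowest for sterol and fatty acid synthesis and highest for the extracellular matrix. Some folds given below stood at the largest fold per read of their list, so they are the read number times a constant. These were BPTF, RNF213, DOT1L, FN1, CDH1 and AXL in replicate 2, and TGFBR2, ITPR2, SMURF1 and RBM10 in replicate 1.

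Of 27 corepressors and histone modifiers 12 had overlapping peaks, among them DOT1L, a histone methyltransferase, with 49 and 10 reads at folds of 33.8 and 42.2. SIN3A, a scaffold of histone deacetylase complexes, held 230 and 57 reads at folds of 22.7 and 24.3, and CREBBP, an acetyltransferase, held 73 and 21 reads at folds of 47.9 and 21.7. Of 20 chromatin remodellers 9 had them, including BPTF, with folds of 33.7 and 29.5 on 76 and 7 reads, and the SWI/SNF subunits ARID1A and ARID1B. A further 5 remodellers had end-distant peaks in replicate 1 but none in replicate 2. Of the 16 remodellers with such a peak in replicate 1, 11 also had one in replicate 2. Over all genes this held for 2142 of the 3530 named in replicate 1, so the 5 are not read as a trait of remodellers.

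Of 30 large ubiquitin ligases and deubiquitinases 16 had overlapping peaks, the highest count of any group. UBR4 held 68 and 16 reads at folds of 27.7 and 53.3, and SMURF1, a ligase for SMAD proteins, held 38 and 16 reads at folds of 27.3 and 66.7. RNF213 held 49 and 7 reads at folds of 30.5 and 29.5. The smaller read count of the best pair had a median of 14 in this group, against 30 over all 1481 genes with a pair, so many of its pairs rest on few reads.

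Adhesion, matrix and cytoskeleton were each present. Of 22 integrins, cadherins and their partners 10 had overlapping peaks, led by CDH1, with 78 and 29 reads at folds of 33.1 and 122.3. TJP1, a tight junction scaffold, held 172 and 56 reads at folds of 16.5 and 34.8. Of 22 matrix genes 6 did, and FN1, which encodes fibronectin, held 72 and 19 reads at folds of 49.5 and 80.2. Of 25 large cytoskeletal genes 11 did, including MYH9, a nonmuscle myosin, with 55 and 16 reads at folds of 16.9 and 40.

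Among signalling genes, 9 of 23 receptor tyrosine kinases had overlapping peaks: AXL, EGFR, EPHA2, EPHB4, FGFR1, IGF1R, INSR, MET and ROR1. EPHB4 held 165 and 32 reads at folds of 8.43 and 20, and AXL held 25 and 12 reads at folds of 10.98 and 50.6. Of 28 genes of Wnt and TGF-beta signalling 10 had them, with WNT7B, a ligand, at 93 and 37 reads and folds of 18.5 and 25.8. The receptor TGFBR2 held 54 and 79 reads at folds of 38.8 and 13.0. Of 22 genes of PI3K and mTOR signalling 7 did, and AKT2, a kinase, held 445 and 268 reads at folds of 14.5 and 13.2.

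**Figure D5:**
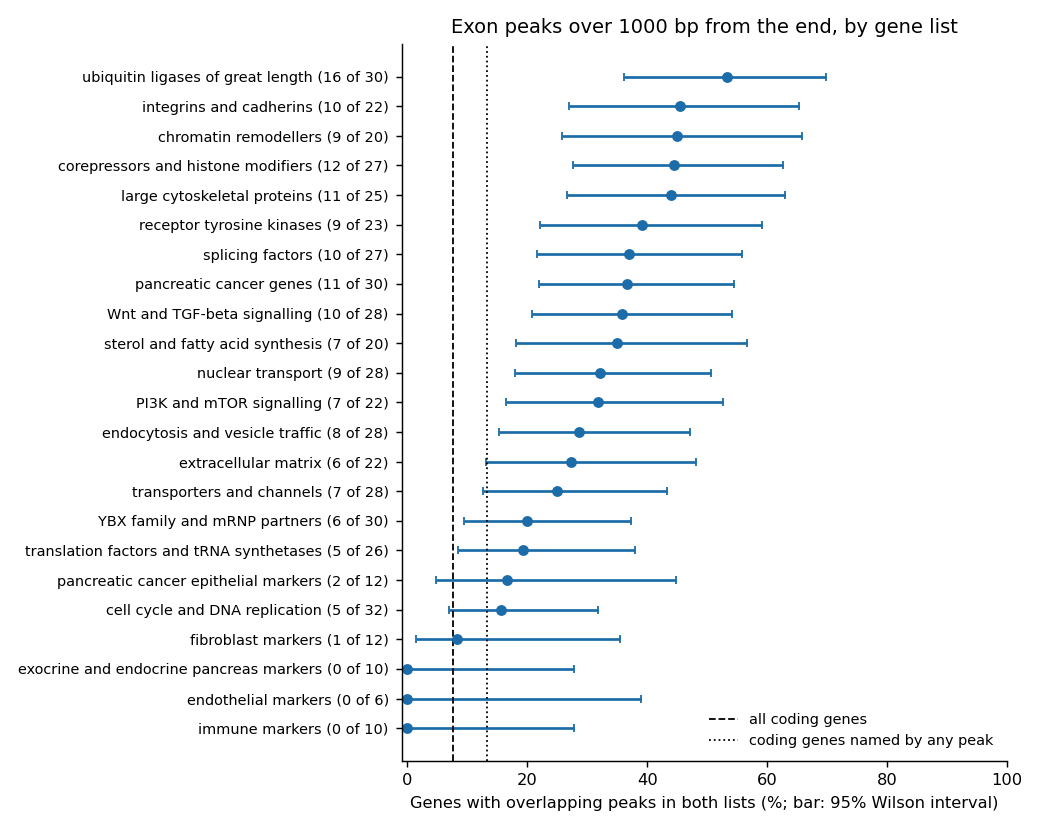
Share of the genes of each group with overlapping end-distant exon peaks in both lists (x axis, percent, with 95% Wilson intervals), with the groups as rows and their counts in brackets. The dashed line is at 7.61%, the share of all coding genes, and the dotted line at 13.3%, the share of coding genes named by any peak, and the large ubiquitin ligases stand highest with 16 of 30.

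Genes of RNA handling were mixed. Of 30 members of the YBX family and of partners in messenger ribonucleoprotein particles, 6 had overlapping peaks: AGO2, DHX9, HDLBP, IGF2BP2, STAU1 and YBX1. IGF2BP2, an mRNA-binding protein, held 108 and 16 reads at folds of 45.6 and 21.8, and DHX9, an RNA helicase, held 52 and 38 reads at folds of 14.6 and 40.4. Of 27 splicing factors 10 had them, with SF3B1, a subunit of the U2 particle, at 183 and 104 reads and folds of 16.1 and 46.6. PRPF6, a protein of the tri-snRNP, held 52 and 31 reads at folds of 18.8 and 118.1. Of 26 translation factors and tRNA synthetases 5 did, and AARS1, the alanyl-tRNA synthetase, held 29 and 10 reads at folds of 19.5 and 16.7.

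Transport and metabolism gave counts of the same order. Overlapping peaks were found in 9 of 28 genes of nuclear transport, where XPO6, an exportin, held 132 and 63 reads at folds of 22.0 and 67.6. They were found in 8 of 28 genes of endocytosis, where SYNJ2, an inositol phosphatase, held 52 and 28 reads at folds of 22.9 and 26.5. They were found in 7 of 28 transporters and channels, where ITPR2, a calcium channel, held 50 and 12 reads at folds of 35.9 and 46.2. Of 20 genes of sterol and fatty acid synthesis 7 had them, and SCAP, the sterol sensor that escorts SREBP, held 104 and 26 reads at folds of 14.1 and 14.6.

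Of 30 genes known from pancreatic cancer 11 had overlapping end-distant peaks: ARID1A, ATM, KDM6A, KMT2C, PALB2, PBRM1, RBM10, ROBO1, SF3B1, SMAD4 and TGFBR2. RBM10, a splicing regulator, held 43 and 20 reads at folds of 30.9 and 25. Of 32 genes of the cell cycle and DNA replication 5 had them, and MKI67, the proliferation antigen, held 1685 and 2154 reads at folds of 8.37 and 14.1 in a peak 6882 bp long in replicate 1.

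The labelled cell type was checked against markers, with the limit that a peak list shows which RNAs were recovered over input and not how much RNA a cell holds. All 12 genes taken as markers of pancreatic cancer epithelial lines were named by a peak of some class, 2 of them, CDH1 and CDH2, by overlapping end-distant peaks. These 12 include CDH2 and VIM, which do not mark epithelium, so CDH1 is the only epithelial gene of the 2. Over all coding genes, 11147 of 19439 were named by a peak of any class and 7.61% by overlapping end-distant peaks. Of 12 fibroblast markers 4 were named by any peak and 1, FBLN1, by overlapping end-distant peaks, with 71 and 16 reads at folds of 9.91 and 24.5. That 1 of 12 (8.33%) is near the share of all coding genes. Of 10 immune, 6 endothelial and 10 exocrine or endocrine markers none had overlapping end-distant peaks, and 3, 2 and 2 of them were named by a peak of any class. Vesicles derived from CAFs were given to the cells, and whether any RNA came with them cannot be told apart here from RNA of the line.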

How the data were processed

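YBX1 IP and input RNA were sequenced in 2 replicates each. Per the submitters' processing notes, cutadapt 1.9.1, Bowtie2 2.2.4 and hg19 were used, with a peak caller not given in the sources used here. The deposited lists give, per the file headers, the read count of a peak, its fold (a ratio of IP over input), a score that is 10 times the negative log10 of p, and a false discovery rate in percent. Read counts in the deposited lists are not scaled to depth, which is unknown beyond reads in peaks. Rows were collapsed to peaks, and genes were keyed through RefSeq accessions to current symbols (98.8% and 98.9% of rows) with Python 3.11.15 and pandas 2.3.3. Classing and pairing were tested on simulated peaks. No model was fitted, since each list is 1 IP against 1 input, so the lists stand side by side as descriptions. Peaks with 2 gene names (24 and 23) count for each gene.

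Named genes were the 12 with the highest smaller fold (at least 20 reads in both lists), 8 with the most overlapping peaks, ties added, 8 with the highest smaller read count, up to 4 per gene list, the 5 highest and 5 lowest within-gene ratios, and YBX1. The text gives a selection of those of the lists. Members and lists were chosen with earlier results of these data known. No sequences are shown, as no hg19 genome was used here.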

Additional observations from a re-analysis of the deposited data

How the results depend on the processing

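Of 81 alternatives 46 left a result within the allowance set for it and 35 moved it. The allowance was wide: a fixed ratio for counts, and the spread between the 2 lists for shares and differences. A turned direction could be scored only for the log2 fold difference and the within-gene share, and none was. Within classes of similar reads, however, the median fold of end-distant peaks was below that of near-end peaks in 10 of 13 classes, the opposite of the difference over all peaks. In replicate 1 the exceptions were the classes of 11 to 20 and 21 to 50 reads, with 1351 and 2548 of its 7642 end-distant peaks. No paired analysis was possible because each list is already 1 IP set against the input of the same number. Stricter scores moved the counts and the overlap: at a score of 200 or more 4795 end-distant peaks were left in replicate 1, and at 50, 120 and 200 or more 3851, 1066 and 419 in replicate 2. Overlap with the other list at those scores was 24.7%, 9.13% and 6.47% in replicate 1 and 47.7%, 64.9% and 71.1% in replicate 2. The scores of the lists were on unlike scales, with a lowest end-distant score of 119.6 in replicate 1 and 30.0 in replicate 2. Cuts at 50 and 120 left 7642 and 7626 peaks in replicate 1. An overlap counted only if the partner also met the cut, so the replicate 1 shares were taken against far fewer replicate 2 peaks. With 50% overlap it was 31.6% and 35.8%, and in replicate 2 it was 36.9% at a fold of 4 or more and 37.2% for peaks wholly away from the end. Coding genes with overlapping peaks numbered 1109, 484 and 233 at scores of 50, 120 and 200, and 3437 to 3527 in 1 list alone (without the other replicate). The log2 fold difference was 0.15 in replicate 1 and 0.41 in replicate 2 with a limit of 500 bp, and 0.11 and 0.24 without peaks at the largest fold per read. The share of genes with the higher end-distant fold was 74.5% and 72.9% at 500 bp, 79.9% in replicate 1 at 2000 bp, 80.9% in replicate 2 at a score of 120, 68.8% and 68.6% with medians, 73.0% and 70.3% with overlapping peaks only, 67.1% and 66.3% with 1 peak of each kind, 56.0% and 53.0% with reads within 2 times, and 72.2% and 69.9% without peaks at the largest fold per read. Settings on whole peaks, single peaks, reads, fold per read and gene groups were chosen after seeing the data. Few reads, high false discovery rates and folds that equal reads times a constant limit single peaks. Of the 23 gene groups, 14 to 20 stood above the share of all coding genes under the alternatives.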
